A study of Mus musculus with 24 samples.

Results

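The 8 genes described here were the Tcf/Lef factors Tcf7, Lef1, Tcf7l1 and Tcf7l2, beta-catenin (Ctnnb1), and Axin1, Apc and Gsk3b, which encode components of the complex that destroys beta-catenin. They were picked by name for their place in the pathway, with earlier results of these data known, and all 8 of them were found once among the 35591 genes of the count table. Expression was measured by poly(A) RNA sequencing in male mouse embryonic stem cell (mESC) lines, which were differentiated towards neuromesodermal progenitors (NMPs), the cells that give rise to spinal cord and trunk mesoderm. The comparison asked whether lines with 1 working copy of Smchd1, a gene for a chromatin silencing protein, differ from wild-type lines when the oocyte had normal SMCHD1.

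The 6 lines were derived by crossing a Castaneus (Cast) female with 2 normal Smchd1 alleles to a C57BL/6 male, which had a deleted and a floxed allele and the MMTV-Cre transgene. The wt lines were Smchd1[fl/+] and the het lines Smchd1[del/+], so every line carried an altered paternal allele, floxed in wt and deleted in het. Each genotype had 3 lines, and each line gave 1 library on day 0, day 2, day 2.5 and day 3, which made 24 libraries in 8 groups of 3. Day 0 cells were in medium with serum and LIF, to which the lines had been moved in steps from a medium that also held the GSK3 inhibitor CHIR99021. The last step described before seeding still held a part of that medium. Cells for day 0 were seeded more densely than those for the later days. Day 2 cells had been in N2B27 medium with bFGF, for which neither LIF nor serum is listed. CHIR99021 was added with bFGF on day 2, so that day 2.5 and day 3 followed the activation of Wnt signalling. Line numbers are shared between the genotypes by name only, whereas within a genotype a number is the same line on each day.

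In Wnt signalling, beta-catenin is held low by a complex in which Axin1 and Apc are scaffolds and Gsk3b is the kinase that marks beta-catenin for breakdown. When a Wnt ligand binds, or when GSK3 is inhibited by a drug, beta-catenin protein accumulates, enters the nucleus and binds the Tcf/Lef factors, which sit on DNA. Tcf7 and Lef1 are known mainly as activators in this setting, whereas Tcf7l1 is known as the main repressor in mESCs, and Tcf7l2 can do either. Beta-catenin also joins cadherins to alpha-catenin at the cell membrane. Much of this control acts on protein, which was not measured here.

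Library totals ranged from 7102655 to 20818018 counts, and the smallest was wt day 2.5 line 2. Smchd1 was lower in het than in wt on each day with no overlap between the libraries, at 87.5 to 123.3 CPM in het and 122 to 217 CPM in wt over all days (counts scaled to a common library size, CPM). The summed level of 6 naive pluripotency markers was 1143 to 1366 CPM on day 0 and 110 to 208 CPM from day 2 on. The summed level of 5 NMP markers was 212 to 282 CPM on day 0, 49.0 to 91.3 CPM on day 2, 640 to 1216 CPM on day 2.5 and 462 to 830.0 CPM on day 3. Sox2, a marker that pluripotent cells share, made up most of the sum on day 0 and day 2 and fell in both steps, with wt means of 239, 67.9 and 41.4 CPM and het means of 235, 66.5 and 48.9 CPM on days 0, 2 and 2.5, whereas T, Nkx1-2, Cdx1 and Cdx2 rose from day 2 to day 2.5 in both genotypes. The summed level of 16 endoderm and extraembryonic markers was lower in the het than in the wt libraries on day 0 and on day 2, and its values are given with the genotype comparison. In libraries of mixed cells, fewer cells that express a gene and less RNA per cell cannot be told apart.

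Per exon length, Ctnnb1 was the most abundant of the 8 genes in each group and Tcf7l2 the least. Levels between genes are given as CPM per kilobase of merged exons (RPKM), with library sizes corrected by the TMM method of edgeR. Group means of Ctnnb1 ran from 136 to 167 RPKM, and those of Tcf7l2 from 0.63 to 1.26 RPKM. On day 0 in wt, the order below Ctnnb1 was Axin1 (21.5 ± 0.85 RPKM), Tcf7l1 (16.4 ± 3.18), Tcf7 (14.8 ± 1.62), Apc (8.41 ± 0.70), Lef1 (7.29 ± 0.97), Gsk3b (5.24 ± 0.58) and Tcf7l2 (0.84 ± 0.22, SD, n = 3). The libraries of Tcf7l1 and Tcf7 overlapped, as did those of Apc and Lef1, and the other neighbours did not. On day 3 in wt, the order was Ctnnb1 (154 ± 12.9 RPKM), Tcf7 (36.7 ± 5.65), Axin1 (20.7 ± 2.89), Apc (11.4 ± 0.50), Gsk3b (8.49 ± 1.41), Lef1 (4.81 ± 1.60), Tcf7l1 (3.90 ± 0.24) and Tcf7l2 (0.99 ± 0.39, SD, n = 3), with an overlap between Lef1 and Tcf7l1 only. In het on day 3 the order was the same and no neighbours overlapped. These orders hold for merged exons, and Lef1 moved up with the length of the longest transcript. By that length its mean was 17.5 ± 2.33 RPKM in wt on day 0, above Tcf7 (15.8 ± 1.72) and Apc (10.6 ± 0.88). Its libraries then overlapped those of Tcf7 and Tcf7l1 but not those of Apc, and Axin1 overlapped Tcf7l1. On day 3 in wt Lef1 by that length measured 11.6 ± 3.85 RPKM and overlapped both Gsk3b (10.1 ± 1.67) and Apc (14.3 ± 0.63, SD, n = 3). The genes also differed in how far their group means moved over genotype and day. The highest group mean was 4.54 times the lowest for Tcf7l1 and 3.27 times for Tcf7, but 1.40 times for Apc and 1.23 times for Ctnnb1.

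Tcf7 and Tcf7l1 moved in opposite directions and had the largest changes in share among the 4 factors. As shares of the summed RPKM of the 4 factors, Tcf7 held 37.7% ± 1.37 and Tcf7l1 41.5% ± 3.66 in wt on day 0 (SD, n = 3). On day 3 the shares were 79.1% ± 0.67 for Tcf7 and 8.48% ± 0.74 for Tcf7l1 in wt, and 79.4% ± 1.29 and 7.19% ± 1.53 in het (SD, n = 3). The ratio of Tcf7 to Tcf7l1, per exon length, was 0.92 ± 0.12 on day 0, 4.16 ± 0.37 on day 2, 12.6 ± 2.89 on day 2.5 and 9.38 ± 0.87 on day 3 in wt. In het the ratio was 1.07 ± 0.20, 6.20 ± 1.67, 12.7 ± 2.32 and 11.4 ± 2.83 on the same days (SD, n = 3). Lef1 held 10.2% to 18.6% and Tcf7l2 1.02% to 2.48% of the summed level as group means. Shares depend on the length given to each gene, and with the longest transcript in place of merged exons, Tcf7 held 27.9% ± 0.58 in wt on day 0 and 67.3% ± 1.11 on day 3, and Lef1 held 31.1% ± 2.47 and 19.6% ± 3.67 (SD, n = 3).

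**Figure D1:**
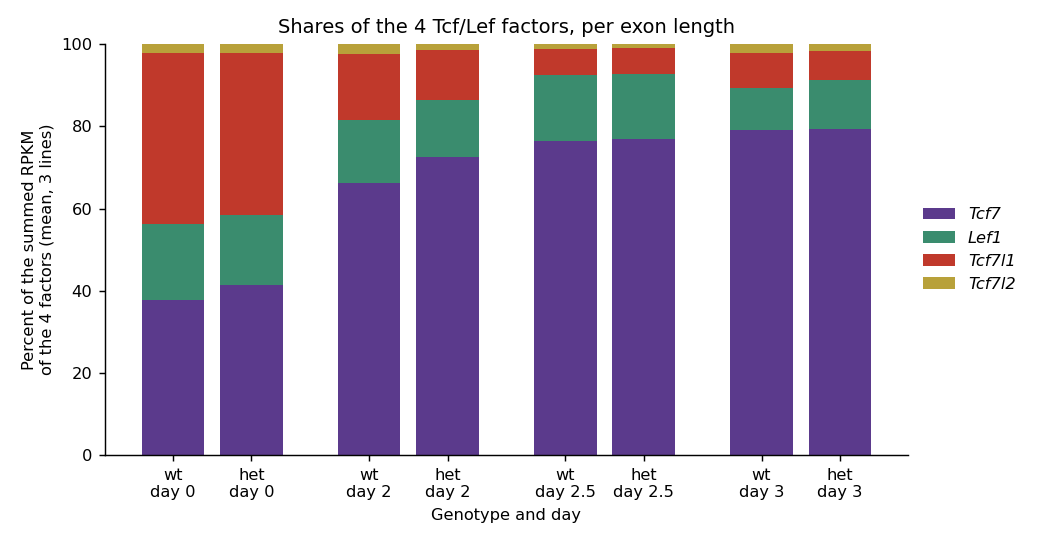
Mean share (percent of the summed RPKM, 3 lines) of Tcf7, Lef1, Tcf7l1 and Tcf7l2 for each genotype and day. The share of Tcf7l1 goes from 41.5% on day 0 to 8.48% on day 3 in wt while that of Tcf7 goes from 37.7% to 79.1%, and het shows the same order of shares as wt on day 2.5 and day 3.

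Start-site windows of the 3 factors that changed most, and of the Wnt target Sp5 for comparison, are shown because Tcf/Lef factors bind a known sequence and can act on each other's genes. The windows are the RefSeq sequences (GRCm38.p6) from 250 bases before to 50 after a start, 5′ to 3′ on the strand of the gene. The Tcf7 window holds an ATG followed by an open reading frame to its end, so most of it may be coding sequence. They lie at chr11:52282965-52283264 (minus strand) for Tcf7, chr6:72788996-72789295 (minus strand) for Tcf7l1, chr3:131110047-131110346 (plus strand) for Lef1 and chr2:70474673-70474972 (plus strand) for Sp5. Capitals mark CTTTGA or CTTTGT on either strand, the core of the Tcf/Lef motif.
Tcf7: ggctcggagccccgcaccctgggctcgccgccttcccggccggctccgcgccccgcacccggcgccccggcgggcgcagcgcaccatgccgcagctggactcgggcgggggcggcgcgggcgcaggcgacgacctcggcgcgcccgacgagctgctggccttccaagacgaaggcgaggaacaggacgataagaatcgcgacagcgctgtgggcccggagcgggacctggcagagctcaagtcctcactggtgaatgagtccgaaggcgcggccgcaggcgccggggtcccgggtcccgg
Tcf7l1: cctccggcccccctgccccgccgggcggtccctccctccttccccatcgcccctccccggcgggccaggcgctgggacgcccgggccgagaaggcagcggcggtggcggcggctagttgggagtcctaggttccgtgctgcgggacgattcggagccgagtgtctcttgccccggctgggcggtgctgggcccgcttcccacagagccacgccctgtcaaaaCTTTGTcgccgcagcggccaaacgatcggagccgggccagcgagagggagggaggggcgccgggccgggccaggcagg
Lef1: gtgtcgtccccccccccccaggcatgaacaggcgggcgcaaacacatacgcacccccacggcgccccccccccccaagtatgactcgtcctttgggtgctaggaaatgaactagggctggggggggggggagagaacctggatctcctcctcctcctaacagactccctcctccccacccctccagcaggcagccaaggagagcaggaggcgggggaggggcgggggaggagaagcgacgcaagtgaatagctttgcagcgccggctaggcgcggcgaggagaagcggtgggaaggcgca
Sp5: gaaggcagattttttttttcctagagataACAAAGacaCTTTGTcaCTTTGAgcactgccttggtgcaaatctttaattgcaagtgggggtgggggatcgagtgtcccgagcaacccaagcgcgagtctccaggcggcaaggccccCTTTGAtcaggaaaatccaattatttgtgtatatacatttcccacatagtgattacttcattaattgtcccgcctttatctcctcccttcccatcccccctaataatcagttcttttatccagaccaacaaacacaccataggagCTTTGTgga
Of the 8 genes, 6 had windows in the table, 12 windows in all, and Axin1 and Apc had none. The 7-letter forms CTTTGAA and CTTTGAT, searched on both strands, were in none of the 12 windows, against 8.65% of all 32851 windows. The 6-letter forms CTTTGA and CTTTGT, which include the longer ones, were in 4 of the 12 windows and in 31.2% of all windows. These were 1 match each in the windows of Tcf7l1 and Gsk3b and in an internal start of Tcf7l2, and 3 matches in an internal start of Lef1 at chr3:131156044-131156343. The Sp5 window held 5 matches of the shorter form, 1 of them of the longer form. The absence of a match says only that these letters are not in the window. For Tcf7, whose window holds an ATG and an open reading frame, sequence further upstream was not searched.

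From day 0 to day 2, cells left LIF and serum for N2B27 with bFGF, before CHIR99021 was added. In this step the activator Tcf7 rose, the repressor Tcf7l1 fell and the kinase gene Gsk3b rose, each in both genotypes. These were 3 of the 8 genes in wt, where 44.3% of all 15521 genes tested passed (22.4% higher, 21.9% lower), and 3 of 8 in het, where 56.1% of 15303 passed (28% higher, 28.1% lower). A change is said to pass when the Benjamini-Hochberg adjusted p of the edgeR quasi-likelihood test over all genes is under 0.05, and log2 fold changes are given as the estimate ± its standard error. Libraries of day 0 and day 2 did not overlap for 6 of the 8 genes in wt, against 54.7% of all genes, and for 3 of 8 in het, against 63.4%. The other genes, Lef1, Tcf7l2, Ctnnb1, Axin1 and Apc, did not pass in either genotype, with log2 fold changes from -0.24 (Axin1) to 0.59 (Tcf7l2) in wt and from -0.09 (Tcf7l2) to 0.19 (Lef1) in het. In the same step 6 of 6 naive pluripotency markers fell and 10 of 13 endoderm and extraembryonic markers rose in each genotype, and the summed level of the latter was 2315 to 3885 CPM on day 0 and 7500 to 15484 CPM on day 2 in wt, and 1356 to 1954 CPM and 4620 to 6387 CPM in het. Of 4 primed epiblast markers 2 rose in wt and 3 in het, and of 3 neural markers tested 2 rose and 1 fell in each. Lost under an alternative were both wt epiblast rises, Pou3f1 (adjusted p up to 0.20) and Dnmt3b (0.19), and the het rise of Otx2 (0.28). The part of all these cell type markers in the changes of the 8 genes was not tested, here or in the later steps.

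Tcf7 (Ensembl gene ENSMUSG00000000782, chr11:52252371-52283014, minus strand) measured 42.6, 39.97 and 34.2 CPM in wt lines 1, 2 and 3 on day 0 and 95.7, 75.7 and 93.96 CPM on day 2. In het lines 1, 2 and 3 it measured 48.03, 38.1 and 40.9 CPM on day 0 and 97.5, 93.9 and 118 CPM on day 2. All 3 lines of each genotype were higher on day 2 and the groups did not overlap. Its log2 fold change in wt was 1.19 ± 0.14, or 2.28-fold (adjusted p = 1.2e-05), and in het 1.30 ± 0.11, or 2.46-fold (adjusted p = 1.0e-07).

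Tcf7l1 (ENSMUSG00000055799, chr6:72626378-72789254, minus strand) went the other way. It measured 78.7, 57.6 and 56.6 CPM in wt lines 1, 2 and 3 on day 0 and 31.7, 30.03 and 33.5 CPM on day 2. In het lines 1, 2 and 3 it measured 60.2, 68.3 and 51.8 CPM on day 0 and 27.5, 27.1 and 21.7 CPM on day 2. Each line was lower on day 2, and the 3 wt lines lay close together there. Its change on the log2 scale was -1.01 ± 0.15 for wt lines (adjusted p = 0.00012) and -1.22 ± 0.13 for het lines (adjusted p = 9.2e-07).

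Gsk3b (ENSMUSG00000022812, chr16:38089001-38246084, plus strand) rose less. It measured 47.2, 57.99 and 49.4 CPM in wt lines 1, 2 and 3 on day 0 and 75.1, 78.03 and 72.97 CPM on day 2. In het lines 1, 2 and 3 it measured 56.4, 62.5 and 53.3 CPM on day 0 and 75.7, 67.9 and 82.5 CPM on day 2. The lines of the 2 days did not overlap in either genotype. The wt change was 0.56 ± 0.12 (adjusted p = 0.0020) and the het change was 0.41 ± 0.10 (adjusted p = 0.0023). Tcf7, Tcf7l1 and Gsk3b passed in this step under all 10 alternatives of each genotype, with adjusted p up to 0.045.

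**Figure D2:**
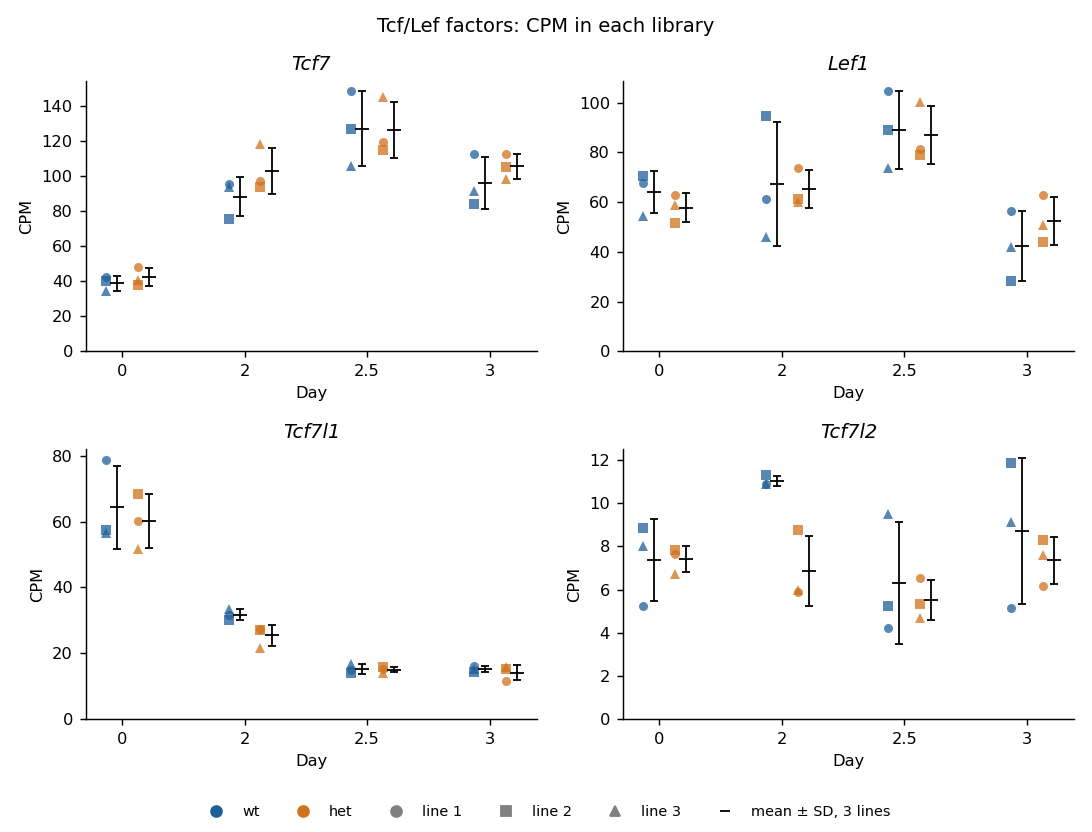
CPM of the 4 Tcf/Lef factors (y axis, from 0) against day (x axis), with 1 point per library, shape for the line, colour for the genotype, and the mean ± SD of 3 lines in black. Tcf7 rises to means of 127 CPM in both genotypes on day 2.5, Tcf7l1 falls to 15.3 CPM in wt and 15.0 in het, Lef1 peaks on day 2.5, and Tcf7l2 stays under 12 CPM.

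From day 2 to day 2.5, after CHIR99021 was added, Tcf7l1 fell again and Tcf7 and Axin1 rose in both genotypes. In wt these were the 3 genes of 8 that passed, where 29.1% of all 15540 genes passed (14.6% higher, 14.5% lower). In het 6 of 8 passed, where 44.7% of all 15577 genes passed (21.8% higher, 22.9% lower), and the further genes were Lef1, which rose, and Gsk3b and Apc, which fell. Libraries of day 2 and day 2.5 did not overlap for 6 of the 8 genes in wt, against 43.9% of all genes, and for 5 of 8 in het, against 54.6%. The difference between the genotypes in this step did not pass for any of the 8 genes, so the larger number in het is not shown to be a difference. Of the 13 endoderm and extraembryonic markers tested, 1 fell in wt and 8 rose in het in this step. All 4 primed epiblast markers fell in both genotypes, and their summed level went from 1213 to 1432 CPM in the day 2 libraries to 351 to 469 CPM on day 2.5. Of 3 neural markers tested, 2 fell in wt and 3 in het, and of the 5 NMP markers 4 rose and 1, Sox2, fell in each. The fall of Sox2 was lost under an alternative in both genotypes (adjusted p up to 0.17 in wt and 0.11 in het), as was that of the neural marker Tubb3 in het (0.13).

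Tcf7l1 measured 14.9, 14.01 and 16.9 CPM in wt lines 1, 2 and 3 on day 2.5 and 15.2, 15.7 and 14.2 CPM in het lines 1, 2 and 3. All 6 libraries were below each day 2 library of their genotype. The change was -1.04 ± 0.17 for wt lines (adjusted p = 0.00072) and -0.76 ± 0.15 for het lines (adjusted p = 0.00079), and it passed under each of 10 alternatives, with adjusted p up to 0.026. Tcf7l1 overlaps Gm15401, a gene of the other strand, and whether counting used the strand is not stated. The smallest library, wt day 2.5 line 2, held 102 counts of Tcf7l1.

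Tcf7 measured 149, 127 and 106 CPM in wt lines 1, 2 and 3 on day 2.5 and 119, 115 and 145 CPM in het lines 1, 2 and 3. The wt groups of day 2 and day 2.5 did not overlap, whereas those of het did, although each het line was higher on day 2.5 than on day 2. The rise was 0.54 ± 0.15 in the wt lines (adjusted p = 0.016) and 0.29 ± 0.11 in the het lines (adjusted p = 0.046). Leaving out wt line 2 gave 0.44 (adjusted p = 0.16), leaving out het line 1 gave 0.32 (adjusted p = 0.14) and leaving out het line 2 gave 0.29 (adjusted p = 0.14).

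Lef1 (ENSMUSG00000027985, chr3:131110471-131224356, plus strand) measured 61.1, 94.6 and 46.03 CPM in wt lines 1, 2 and 3 on day 2 and 105, 89.03 and 73.6 CPM on day 2.5. In het lines 1, 2 and 3 it measured 73.9, 61.3 and 60.2 CPM on day 2 and 81.5, 78.8 and 100.2 CPM on day 2.5. Lef1 was higher on day 2.5 in all 3 het lines and in wt lines 1 and 3, but not in wt line 2, which had the highest level of the day 2 libraries. The het change was 0.41 ± 0.11 (adjusted p = 0.0095), and the wt change was 0.42 ± 0.22 (adjusted p = 0.17). With the line as a block the wt change was 0.47 (adjusted p = 0.038), without the filter it was 0.41 (adjusted p = 0.027), and without line 3 the het change was 0.25 (adjusted p = 0.11). Lef1 overlaps Gm43352, also a gene of the other strand.

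Among the genes of the destruction complex, Axin1 (ENSMUSG00000024182, chr17:26138688-26195811, plus strand) measured 65.5, 64.1 and 77.6 CPM in wt lines 1, 2 and 3 on day 2 and 105, 93.8 and 92.6 CPM on day 2.5. In het lines 1, 2 and 3 it measured 69.2, 82.02 and 72.8 CPM on day 2 and 84.1, 88.6 and 96.8 CPM on day 2.5. The groups did not overlap in either genotype. Axin1 rose by 0.51 ± 0.13 in the wt lines (adjusted p = 0.010) and by 0.26 ± 0.10 in the het lines (adjusted p = 0.041). Without line 2 the wt change did not pass (0.48, adjusted p = 0.096), and the het change did not pass when any 1 of the 3 lines was left out (adjusted p = 0.053 to 0.19).

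Gsk3b measured 60.8, 62.6 and 62.7 CPM in het lines 1, 2 and 3 on day 2.5, all below the day 2 libraries, and its change was -0.29 ± 0.10 (adjusted p = 0.029). In wt lines 1, 2 and 3 it measured 53.03, 53.03 and 67.2 CPM, also all below day 2, with a change of -0.37 ± 0.13 (adjusted p = 0.054). Apc (ENSMUSG00000005871, chr18:34220924-34322552, plus strand) measured 155, 157 and 146 CPM in het lines 1, 2 and 3 on day 2 and 126, 128 and 139.7 CPM on day 2.5, a change of -0.22 ± 0.08 (adjusted p = 0.040). The het groups of Apc did not overlap, whereas in wt they did, with a change of -0.05 ± 0.11 (adjusted p = 0.78). Scaling by library totals alone left neither het change past the threshold, at -0.21 for Gsk3b (adjusted p = 0.11) and -0.14 for Apc (adjusted p = 0.18). The het change of Apc also did not pass with DESeq2 size factors (adjusted p = 0.064) or without the filter (0.077), whereas the wt change of Gsk3b passed with a mean of at least 50 counts (0.040) and by the DESeq2 Wald test (0.045). Neither passed without het line 1 (adjusted p = 0.21 for Gsk3b and 0.32 for Apc), nor did Gsk3b without het line 3 (adjusted p = 0.14) or Apc without het line 2 (adjusted p = 0.24). In 1 fit of all 24 libraries, the het changes of Tcf7, Lef1, Gsk3b and Apc did not pass (adjusted p = 0.076, 0.10, 0.072 and 0.097), whereas the wt change of Gsk3b did (0.016).

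Tcf7l2 (ENSMUSG00000024985, chr19:55741820-55933654, plus strand) was counted 38 to 222 times per library, the fewest of the 8 genes. On day 2 it measured 10.9, 11.3 and 10.9 CPM in wt lines 1, 2 and 3, and on day 2.5 it measured 4.203, 5.22 and 9.51 CPM. The wt groups did not overlap, and the change was -0.79 ± 0.30 (adjusted p = 0.066), or -0.87 with the line as a block (adjusted p = 0.031). It also passed without the filter (adjusted p = 0.034), by the DESeq2 Wald test (0.048) and in the fit of all libraries (0.036). Leaving out wt line 3, the highest on day 2.5, gave -1.25 (adjusted p = 0.031). The het change was -0.32 ± 0.26 (adjusted p = 0.35).

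Ctnnb1 (ENSMUSG00000006932, chr9:120929216-120960507, plus strand) was counted 5571 to 19336 times per library, the most of the 8 genes. In this step it differed by 0.15 ± 0.10 in wt (adjusted p = 0.29) and -0.07 ± 0.10 in het (adjusted p = 0.61). Its het lines 1, 2 and 3 measured 735, 689 and 954 CPM on day 2.5, and without line 3, the highest, the het change was -0.22 (adjusted p = 0.026). Of the 75-base stretches of its longest transcript, 82.7% were found in no transcript of another gene (GENCODE vM21), and it overlaps Ulk4, a gene of the other strand.

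**Figure D3:**
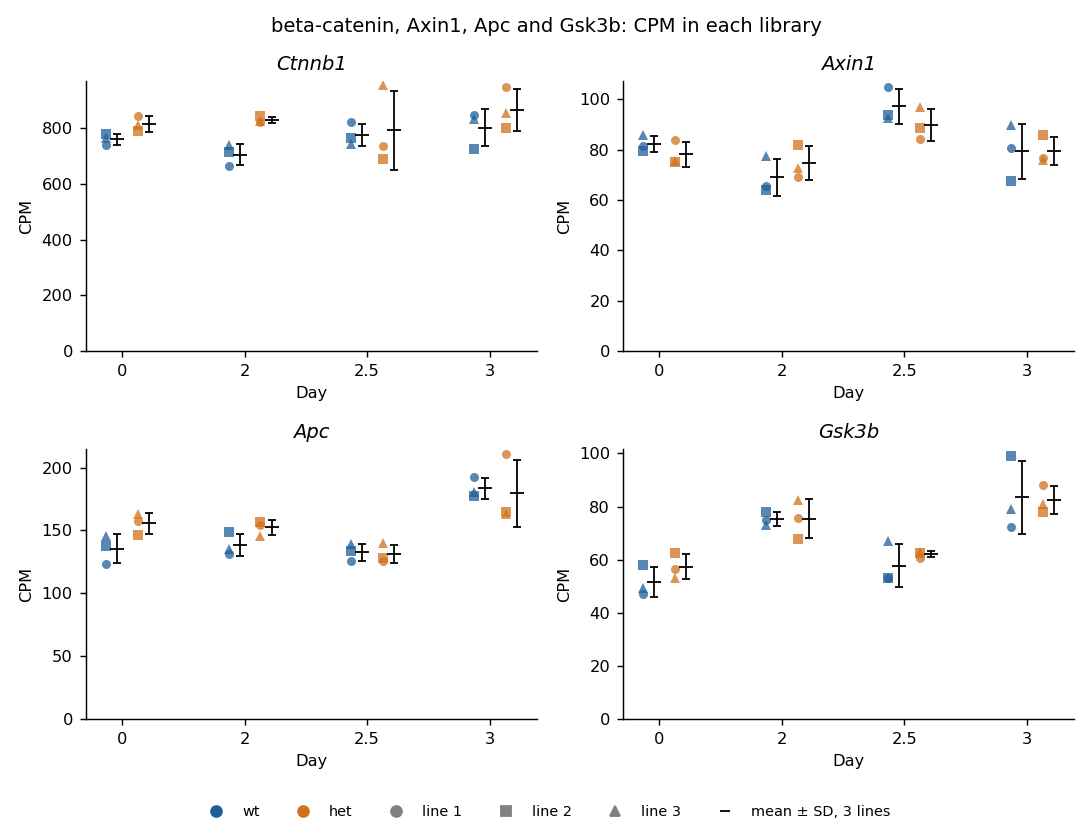
CPM of Ctnnb1, Axin1, Apc and Gsk3b (y axis, from 0) against day (x axis), with 1 point per library, shape for the line, colour for the genotype, and the mean ± SD of 3 lines in black. Ctnnb1 stays between 663 and 954 CPM, Axin1 is highest on day 2.5 at a mean of 97.2 CPM in wt and 89.8 in het, Apc is highest on day 3, and Gsk3b is lower on day 2.5 than on day 2 and day 3.

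From day 2.5 to day 3, Lef1 fell and Apc and Gsk3b rose in both genotypes. These were the 3 genes of 8 that passed in wt, where 19.1% of all 15292 genes passed (8.99% higher, 10.1% lower). In het 4 of 8 passed, where 29.8% of all 15801 genes passed (13.8% higher, 16% lower), and the further gene was Tcf7, which fell. Libraries of day 2.5 and day 3 did not overlap for 4 of the 8 genes in wt, against 39% of all genes, and for 4 of 8 in het, against 44.6%. Without wt line 2, whose day 2.5 library was the smallest, 0 of the 8 and 29 of all genes passed in wt. Of 4 paraxial mesoderm markers 3 rose in each genotype, Tbx6, Msgn1 and Dll1. Each wt rise was lost under an alternative (adjusted p up to 0.066, 0.084 and 0.083), and the het rises passed under all. The summed level of the 4 was 12.1 to 22.8 CPM on day 2, 3.50 to 8.35 CPM on day 2.5 and 17.4 to 61.2 CPM on day 3. Dll1 made up the largest part, with means of 16.9, 4.23 and 22.7 CPM in wt and 20.9, 3.61 and 21.1 CPM in het on these days. Of the 5 NMP markers 2 fell in wt and 1 in het, of 4 primed epiblast markers 2 fell in wt, and 1 fell and 1 rose in het, and of the endoderm and extraembryonic markers 0 of 14 passed in wt and 2 of 13 fell in het. Of the neural markers tested, Tubb3 fell in wt and het and Sox1 rose in het, each lost under an alternative (adjusted p up to 0.16, 0.079 and 0.20). Also lost under an alternative were the wt falls of Nkx1-2 (0.16), Cdx1 (0.16) and Fgf5 (0.0998) and the het rise of Pou3f1 (0.14). Tcf7l1 differed from its day 2.5 level by -0.01 ± 0.17 in wt (adjusted p = 0.98) and -0.12 ± 0.15 in het (adjusted p = 0.59).

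Lef1 measured 56.5, 28.4 and 41.9 CPM in wt lines 1, 2 and 3 on day 3 and 62.7, 43.97 and 50.6 CPM in het lines 1, 2 and 3. All 6 libraries were below the day 2.5 libraries of their genotype, and wt line 2, which was highest on day 2, was lowest on day 3. The change was -1.08 ± 0.22 for wt lines (adjusted p = 0.0083) and -0.76 ± 0.13 for het lines (adjusted p = 0.0016). Without wt line 2 it was -0.87 and did not pass (adjusted p = 0.11). The het fall passed under each of its 10 alternatives, with adjusted p up to 0.040.

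Apc measured 126, 134 and 139 CPM in wt lines 1, 2 and 3 on day 2.5 and 193, 177 and 181 CPM on day 3. In het lines 1, 2 and 3 it measured 210.4, 165 and 163 CPM on day 3, against 126 to 139.7 CPM on day 2.5. The groups did not overlap in either genotype, and het line 1 stood above the other het lines. Apc rose by 0.46 ± 0.10 in the wt lines (adjusted p = 0.0094) and by 0.41 ± 0.10 in the het lines (adjusted p = 0.011). It did not pass without wt line 2 (0.48, adjusted p = 0.12), without wt line 3 (0.50, adjusted p = 0.069) or without het line 1 (0.26, adjusted p = 0.088).

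Gsk3b measured 72.5, 99.04 and 78.96 CPM in wt lines 1, 2 and 3 on day 3 and 88.2, 77.96 and 81.1 CPM in het lines 1, 2 and 3. All 6 libraries were above the day 2.5 libraries of their genotype. Gsk3b rose by 0.52 ± 0.15 in the wt lines (adjusted p = 0.034) and by 0.37 ± 0.08 in the het lines (adjusted p = 0.0059). It did not pass without wt line 2 (0.32, adjusted p = 0.34), without wt line 3 (0.68, adjusted p = 0.062) or without het line 1 (0.31, adjusted p = 0.053). In het, Gsk3b thus passed in each of the 3 steps, first higher, then lower, then higher.

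Tcf7 measured 113, 84.2 and 91.8 CPM in wt lines 1, 2 and 3 on day 3 and 113, 105 and 98.6 CPM in het lines 1, 2 and 3. Each line was lower than on day 2.5. The change was -0.41 ± 0.15 for wt lines (adjusted p = 0.074) and -0.30 ± 0.10 for het lines (adjusted p = 0.041). With the line as a block, it passed in wt (-0.41, adjusted p = 0.0068) and not in het (-0.29, adjusted p = 0.052). The wt change also passed without line 1 (-0.41, adjusted p = 0.027) and without the filter (-0.42, adjusted p = 0.022), and the het change did not pass without line 2 (-0.36, adjusted p = 0.074) or line 3, where it was -0.11 (adjusted p = 0.46). Nor did the het change pass with DESeq2 size factors (adjusted p = 0.063), library totals alone (0.057), the DESeq2 Wald test (0.053) or 1 fit of all libraries (0.18), and in that fit the wt change passed (0.028).

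Axin1 had a change of -0.30 ± 0.12 in wt from day 2.5 to day 3 (adjusted p = 0.11), or -0.31 with the line as a block (adjusted p = 0.043) and in the fit of all libraries (0.039), and -0.21 ± 0.09 in het (adjusted p = 0.089). Its group means of 79.3 CPM in wt and 79.5 CPM in het on day 3 lay near the day 0 means of 82.3 and 78.2 CPM. As in the earlier steps, Ctnnb1 did not pass, at 0.04 ± 0.10 in wt (adjusted p = 0.81) and 0.09 ± 0.12 in het (adjusted p = 0.60).

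**Figure D4:**
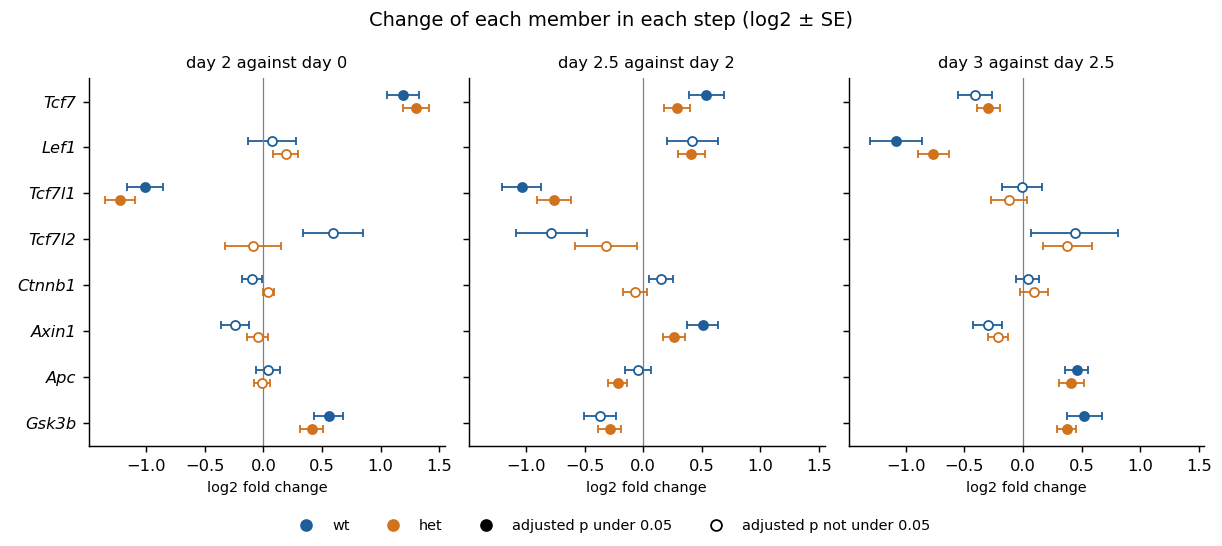
log2 fold change (x axis) with its SE for each of the 8 genes (y axis) in the 3 steps, wt in blue and het in orange, and filled points for an adjusted p under 0.05. Tcf7 lies at 1.19 and 1.30 and Tcf7l1 at -1.01 and -1.22 in the first step, and Lef1 at -1.08 and -0.76 in the last.

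Of the other genes of the destruction complex and its regulators, 21 genes, the first step called 7 in wt, which all rose, where 44.3% of all genes passed, and 9 in het, where 8 rose and 1 fell and 56.1% of all genes passed. Over the list the median change (log2) was 0.13 in wt and 0.18 in het, against 0.02 and 0.01 over all genes. Nkd1 and Nkd2, feedback inhibitors that bind Dishevelled, rose most among the 7 that rose in both genotypes, by 2.36 and 2.00 in wt and 2.46 and 1.58 in het on the log2 scale. From day 2 to day 2.5, 3 rose and 4 fell in wt, where 29.1% of all genes passed, and 3 rose and 6 fell in het, where 44.7% passed, with medians of -0.19 and -0.13. The largest rise was in Axin2, the inducible relative of Axin1 and a Wnt target. It went from 5.70 to 8.69 CPM over the wt lines on day 2 to 100.4 to 193 CPM on day 2.5, a rise of 4.31 ± 0.27 on the log2 scale (adjusted p = 2.4e-07), and the het rise was 3.98 ± 0.14 (adjusted p = 1.4e-10). Nkd1 rose again, by 3.44 in wt and 2.91 in het. Frat2, which encodes a GSK3-binding protein, fell by 2.18 in wt and by 1.87 in het, and Csnk1e, a casein kinase gene, fell by 0.60 and 0.57, which did not pass without wt line 3 (adjusted p = 0.074). From day 2.5 to day 3, 4 rose and 0 fell of 20 tested in wt, where 19.1% of all genes passed, and 5 rose and 2 fell in het, where 29.8% passed. Csnk1e and Tnks, a tankyrase gene, rose by 0.53 and 0.42 in wt and 0.59 and 0.32 in het. In wt neither passed without line 2 (adjusted p = 0.18 for Csnk1e and 0.41 for Tnks) or line 3 (0.14 and 0.052), and in het Tnks did not pass without line 1 (0.057) or line 3 (0.10).

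Of the 22 nuclear partners of Tcf/Lef and beta-catenin, 2 rose and 8 fell of 21 tested on leaving LIF in wt, where 44.3% of all genes passed (21.9% lower). In het 3 rose and 7 fell of 22, where 56.1% passed (28.1% lower), with medians of -0.16 and -0.13. Tle4, which encodes a Groucho-type corepressor that Tcf/Lef factors bind, fell in each step and in both genotypes. Its group means in wt were 262, 106, 61.8 and 33.9 CPM on days 0, 2, 2.5 and 3, and in het they were 273, 118, 53.8 and 40.8 CPM. Aes, a short relative of the Tle genes, fell by 1.14 in wt and 1.01 in het in the first step. In the same step Ctnnbip1, which encodes a protein that keeps beta-catenin from Tcf, rose by 1.05 in wt and 0.78 in het, and the Mediator gene Med12 rose by 0.76 and 0.60. From day 2 to day 2.5, 7 rose and 3 fell in wt and 6 rose and 6 fell in het, against 29.1% and 44.7% of all genes. Pygo1, a coactivator gene, rose by 1.14 and 1.77 and Med12 by 0.70 and 0.70, and Tle4 and Tbl1xr1 fell, the latter by 0.88 and 0.89. The wt rise of Pygo1 did not pass when any 1 line was left out (adjusted p = 0.075 to 0.10) or in the fit of all libraries (0.057), nor did the wt fall of Tle4 without line 2 (0.086). From day 2.5 to day 3, 1 rose and 4 fell of 21 tested in wt and 2 rose and 6 fell in het, against 19.1% and 29.8% of all genes, and Ctnnbip1 fell by 0.63 in wt and 0.55 in het. Tbl1x, a relative of Tbl1xr1, rose by 0.42 and 0.37, which did not pass without wt line 2 (adjusted p = 0.17), wt line 3 (0.077) or het line 1 (0.14). In this step Tle4 and Ctnnbip1 did not pass without wt line 2 (adjusted p = 0.082 and 0.12) or het line 3 (0.12 and 0.075), nor did Ctnnbip1 without wt line 3 (0.15).

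Among the 6 partners of beta-catenin at the membrane, the cadherin genes moved in opposite directions once CHIR99021 was added. Cdh1 (E-cadherin) fell from a mean of 607 to 320.4 CPM in wt and from 686 to 308 CPM in het between day 2 and day 2.5, changes of -0.91 ± 0.15 (adjusted p = 0.00085) and -1.16 ± 0.09 (adjusted p = 3.9e-07) on the log2 scale. Cdh2 (N-cadherin) rose from 7.16 to 31.8 CPM in wt and from 8.10 to 41.8 CPM in het, by 2.17 and 2.36 on the log2 scale. Jup, which encodes plakoglobin, a relative of beta-catenin, fell by 0.58 and 0.64, and its wt fall did not pass without line 2 (adjusted p = 0.091) or line 3 (0.29). In this step 1 rose and 3 fell of 6 in each genotype, against 29.1% of all genes in wt and 44.7% in het, with medians of -0.29 in wt and -0.52 in het. Before it, 1 rose and 2 fell in wt and 2 rose and 3 fell in het, against 44.3% and 56.1% of all genes, and Cdh1 rose by 0.31 and 0.40 while Jup fell by 0.72 and 0.59 and Ctnna1 (alpha-catenin) by 0.34 and 0.22, the latter not in wt without line 3 (adjusted p = 0.060). After it, 1 rose in wt and 2 in het and 0 fell, against 19.1% and 29.8% of all genes, and Ctnnd1, another catenin gene, rose by 0.37 and 0.34. The wt rise of Cdh1 on leaving LIF did not pass without line 1 (adjusted p = 0.11) or line 3 (0.22) or in the fit of all libraries (0.11), the wt rise of Ctnnd1 did not pass without line 2 (0.13) or line 3 (0.19), and its het rise did not pass without any 1 line (0.051 to 0.10). Ctnnb1 itself differed by 1.23 times at most between its group means.

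Of the 14 Wnt target genes, 12 rose and 0 fell from day 2 to day 2.5 in wt, where 13 were tested and 14.6% of all genes were higher, and in het, where 14 were tested and 21.8% of all genes were higher. The lists share genes, so these counts are not separate. T, Cdx1 and Cdx2 are also NMP markers, Tbx6 is a paraxial mesoderm marker, and Axin2 and Nkd1 are on the list of the destruction complex. The medians of the Wnt targets were 4.44 and 5.58, which stayed as they were with Sp5, the 1 target at 0 in all day 2 libraries, set to its lower bound. T (brachyury), which marks the primitive streak and NMPs, went from at most 1.43 CPM in any day 2 library to 186 to 442 CPM in wt and 312 to 378 CPM in het. Sp5, a zinc finger gene that acts downstream of Wnt, had 0 counts in all day 2 libraries and 37.4 to 57.8 CPM in wt and 39.5 to 53.0 CPM in het on day 2.5. Against a floor of 3 counts per library, this was at least 234-fold higher in wt and at least 203-fold higher in het. Before this, from day 0 to day 2, 2 rose and 4 fell of 11 in wt and 2 rose and 3 fell of 11 in het, against 44.3% and 56.1% of all genes. Notum, a secreted Wnt inhibitor, was counted 116 to 145 times per wt library on day 0 and 9 to 18 times on day 2, and 108 to 172 and 0 to 6 times in het. Wnt3a, a ligand gene, also fell, from 11 to 21 counts per wt library to 0 to 5 and from 25 to 41 counts per het library to 0 or 1, and its wt fall did not pass without line 2 (adjusted p = 0.21) or without the filter (0.064). The rises were those of Nkd1, given above, and of Rnf43, a ubiquitin ligase gene, which went from 4 to 6 counts per wt library to 31 to 80 and from 1 to 6 counts per het library to 53 to 70. From day 2.5 to day 3, 3 rose and 3 fell in wt and 3 rose and 5 fell in het, against 19.1% and 29.8% of all genes. Tbx6 and Wnt3a rose, by 4.17 and 2.38 in wt and 2.71 and 2.36 in het, and Cdx1 and Sp5 fell, by 1.24 and 1.10 in wt and 1.32 and 0.96 in het. Without wt line 2 none of the 4 passed in wt (adjusted p = 0.066 for Tbx6, 0.094 for Wnt3a, 0.16 for Cdx1 and 0.14 for Sp5), and without het line 3 Sp5 did not pass in het (0.053).

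Between genotypes, the test did not pass for any of the 8 genes on any day. On day 0, 0 of 8 passed, as did 0% of all 15108 genes tested by the edgeR test. At an unadjusted p under 0.05 there were 0 of the 8 and 10.9% of all genes, and DESeq2 called 0 of the 8 and 84 of all genes. On day 2, 0 of 8 passed, against 0.551% of 15414 genes, and 3 of 8 had an unadjusted p under 0.05, against 10.2%. On day 2.5, 0 of 8 passed, against 0% of 15588 genes, and on day 3, 0 of 8 passed, against 0.00638% of 15686 genes. At an unadjusted p under 0.05 these days had 0 of the 8 each, against 5.27% and 9.13% of all genes. DESeq2 called 0 of the 8 on each of these 3 days, and 234, 3 and 116 of all genes.

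On day 2, Ctnnb1 measured 663, 713 and 739 CPM in wt lines 1, 2 and 3 and 820.3, 842 and 825 CPM in het lines 1, 2 and 3. All 3 het lines were above the wt lines, and the log2 difference (het over wt) was 0.22 ± 0.08 (adjusted p = 0.26). Tcf7l2 measured 10.9, 11.3 and 10.9 CPM in wt and 5.89, 8.75 and 5.97 CPM in het, a difference of -0.69 ± 0.24 (adjusted p = 0.29). The het lines of Tcf7l2 were all below the wt lines. Tcf7l1 measured 31.7, 30.03 and 33.5 CPM in wt and 27.5, 27.1 and 21.7 CPM in het, again with all het lines lower, a difference of -0.33 ± 0.15 (adjusted p = 0.46). These 3 of 8 genes had groups that did not overlap, against 15.8% of all genes tested. Over 13 alternatives the adjusted p was 0.12 to 0.57 for Ctnnb1, 0.19 to 0.59 for Tcf7l2 and 0.35 to 0.78 for Tcf7l1. For the other 5 genes the differences on day 2 ran from -0.06 for Lef1 to 0.21 for Tcf7.

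On day 0, the groups did not overlap for 2 of the 8 genes, Apc and Ctnnb1, against 17% of all genes. Apc measured 124, 137 and 146 CPM in wt and 158, 146 and 163 CPM in het, a difference of 0.17 ± 0.08 (adjusted p = 0.46). Ctnnb1 measured 739, 777 and 764 CPM in wt and 844, 788 and 813 CPM in het, a difference of 0.08 ± 0.06 (adjusted p = 0.63). In both genes the het lines were the higher ones, and the lowest difference on this day was -0.18, in Lef1. On day 2.5 and day 3 the groups overlapped for all 8 genes, against 11.6% and 14% of all genes that did not overlap. Differences ran from -0.20 (Tcf7l2) to 0.10 (Gsk3b) on day 2.5 and from -0.25 (Tcf7l2) to 0.29 (Lef1) on day 3. For Tcf7l2 they were 0.25 without wt line 3 on day 2.5 and 0.04 without wt line 2 on day 3.

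**Figure D5:**
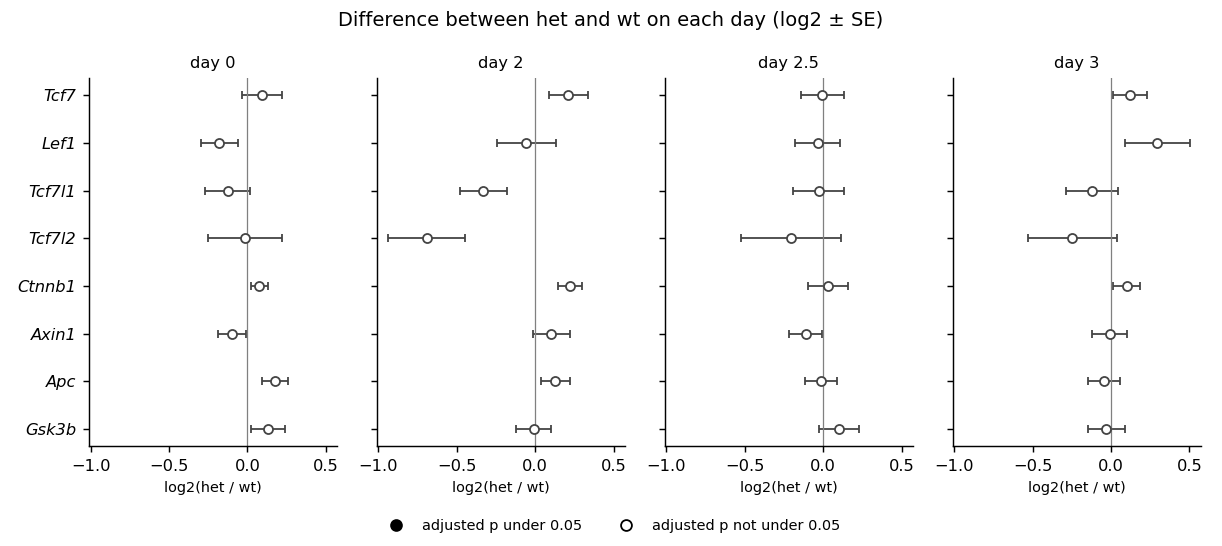
log2 difference of het over wt (x axis, same scale in each panel) with its SE for each of the 8 genes (y axis) on each day, open where the adjusted p is not under 0.05. All points are open, and on day 2 Ctnnb1 lies at 0.22, Tcf7l1 at -0.33 and Tcf7l2 at -0.69.

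The endoderm and extraembryonic markers differed between the genotypes in the same libraries. On day 2 the summed level of the 16 markers was 7500 to 15484 CPM in wt and 4620 to 6387 CPM in het, and 11 of 13 markers tested were lower in het by the edgeR test, against 0.5% of all genes, with a median log2 difference of -1.03. The count of 11 did not hold when any 1 het line was left out. Without het line 1, 2 or 3, the genes lower in het were 0, 3 and 0 among all genes tested. On day 0 the sum was 2315 to 3885 CPM in wt and 1356 to 1954 CPM in het, with all 13 tested markers lower, 12 at an unadjusted p under 0.05, against 10.9% of all genes, and 0 at an adjusted one, against 0%. On day 2.5 it was 5151 to 13589 and 5441 to 8119 CPM, and on day 3 it was 5215 to 10349 and 4010 to 6599 CPM. Afp was at 0 in all wt libraries on day 0 and in all het libraries on days 2 and 3, and Ttr was at 0 in both genotypes on day 0. The part of these markers in the differences of Ctnnb1, Tcf7l2 and Tcf7l1 on day 2 was not tested.

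The test of whether a step differed between the genotypes passed for 0 of the 8 genes in each step, as it did for 0% of all 16387, 16569 and 16486 genes tested by edgeR. At an unadjusted p under 0.05 there were 0 of the 8 genes in each step, against 6.31%, 5.13% and 3.82% of all genes, and DESeq2 called 0 of the 8 in each step and 6 of all genes in the first. The difference of the steps (het minus wt) ran from -0.68 (Tcf7l2) to 0.20 (Axin1) for day 2 against day 0. It ran from -0.24 (Tcf7) to 0.47 (Tcf7l2) for day 2.5 against day 2, and from -0.13 (Gsk3b) to 0.33 (Lef1) for day 3 against day 2.5. Tcf7l2 in the first step had the largest of these, -0.68 ± 0.34 (adjusted p = 0.80). On day 0 it measured 5.23, 8.86 and 8.02 CPM in wt lines 1, 2 and 3 and 7.65, 7.85 and 6.72 CPM in het lines 1, 2 and 3. All 3 wt lines and 1 of the 3 het lines were higher on day 2 than on day 0.

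The genes whose pattern over the 24 libraries was most like that of a member were found by the Pearson correlation of log2(CPM + 0.5) among 12457 genes with 50 or more counts on average. The libraries share lines and days, so the values are a description. For Tcf7 they were Cpe (r = 0.98), Scn2b (0.97) and Zmynd8 (0.96), and for Tcf7l1 they were Stoml1 (0.97), Dppa5a (0.97) and Hmox1 (0.97). For Gsk3b they were Xiap (0.95), Bmpr1a (0.93) and 1700020I14Rik (0.93), for Apc Dlg1 (0.91), Crabp2 (0.90) and Plxna2 (0.86), and for Axin1 Ddx41 (0.89), Rtcb (0.89) and Xrcc1 (0.87). Lef1 was followed by 9530082P21Rik (0.85), Gm43352 (0.84) and Glt1d1 (0.83), Tcf7l2 by Synj1 (0.82), Gm16034 (0.80) and Adam19 (0.79), and Ctnnb1 by Tmpo (0.75), Ulk4 (0.74) and Dars (0.71). By Spearman's rho the nearest genes kept Cpe for Tcf7 (rho = 0.95) and Xiap for Gsk3b (0.95), but were Tcf15, Susd2 and Tet2 (each 0.93) for Tcf7l1 and Col4a3bp (0.89), Gm37494 (0.86) and Rev3l (0.85) for Apc, so the names depend on the measure. Gm43352 overlaps Lef1 and Ulk4 overlaps Ctnnb1, each on the other strand, so without strand their reads cannot be told apart. Within the 8 genes, the lowest value was -0.90, between Tcf7 and Tcf7l1, and the highest was 0.60, between Apc and Gsk3b.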

How the data were processed

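Poly(A) RNA of 24 libraries, 3 lines per genotype and day, had been prepared with a TruSeq kit, stranded or not, and sequenced as single-end reads. The authors trimmed reads with Trim Galore 0.4.4, mapped them to GRCm38.p6 with HISAT2 2.0.5 and deposited raw counts per gene from SeqMonk. The 8 pooled columns of group means were not used. The authors also deposited log2 RPKM values of 39 Hox genes and 34 further factors, and 2 of the 8 genes, Ctnnb1 and Gsk3b, have rows there, which served only to check the lengths. Samples were grouped by the deposited genotype and day labels. The 8 genes, the lists and the tests were chosen with earlier results of these data known.

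Counts were tested with edgeR 4.0.16 (quasi-likelihood test, TMM, filterByExpr by group) in R 4.3.3, on the groups compared only, with Benjamini-Hochberg adjustment over all genes tested, in 13 comparisons (4 of genotype, 6 of successive days and 3 interactions). Exon lengths came from GENCODE vM21, in which 35545 of 35591 identifiers matched, and 99.5% of these had the same coordinates. The fits were tested on simulated data. The alternatives were DESeq2 size factors and Wald test (DESeq2 1.42.0), library totals alone, 2 other filters, 1 fit of all libraries, the line as a replicate block, and each line left out. The 3 lines of a genotype are separate cultures followed over days, so numbers pair libraries across days, and correlations of paired residuals were -0.041 to 0.16. Between genotypes numbers pair nothing. The named list genes are the 2 largest rises and 2 largest falls that passed in both genotypes. A floor of 3 counts is 0.144 to 0.422 CPM by library, and such floors cover counting error only.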

Additional observations from a re-analysis of the deposited data

How the results depend on the processing

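Of the 22 step changes of the 8 genes that passed, 9 passed under every alternative run, and 6 changes that did not pass did so under an alternative. Between genotypes 0 of the 8 genes passed in every alternative run on each day and for each interaction. The number of all genes called changed with the setting in both kinds of comparison. For het against wt without the filter beyond 1 count it was 369 on day 0, 384 on day 2, 87 on day 2.5 and 274 on day 3, against 0, 85, 0 and 1, and the DESeq2 Wald test gave 84, 234, 3 and 116. In the fit of all 24 libraries it was 1, 23, 1 and 15, and with a mean of at least 50 counts it was 131 on day 2. The replicate block gave 25 on day 0 and 100 on day 3, although numbers do not pair lines of the 2 genotypes. Leaving out 1 line gave 0 to 60, 0 to 211, 0 to 3 and 0 to 93 on the 4 days. For the interactions, all of which had 0, no filter gave 58, 33 and 23 by step, the Wald test gave 6 and the replicate block 2 in the first step, and leaving out 1 line gave 0 to 2 in the second and 0 to 1 in the last.

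In the steps, the replicate block moved the number of all genes called from 2923 to 4687 in wt from day 2.5 to day 3, where leaving out 1 line gave 29 to 3098. Leaving out 1 line gave 4152 to 6363 in wt from day 0 to day 2, 2249 to 3875 in wt from day 2 to day 2.5 and 2385 to 3032 in het from day 2.5 to day 3. Of the 8 genes, wt day 2.5 against day 2 had 5 in place of 3 without the filter, by the Wald test, in the fit of all libraries and with the replicate block, and 1 to 4 with 1 line left out. The step of het from day 2 to day 2.5 had 2 in the fit of all libraries in place of 6, and 2 to 4 with 1 line left out. The step of wt from day 2.5 to day 3 had 5 in the fit of all libraries and with the replicate block in place of 3, and 0 to 4 with 1 line left out, and that of het had 2 to 3 in place of 4. Beyond the calls given beside the results, the block changed no other call of the 8 genes.

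Of the 104 changes of the 8 genes in the 13 comparisons, 34 turned sign under an alternative, none of them with an adjusted p under 0.05 in either fit. With 1 line left out, differences between genotypes ranged on day 0 from -0.0050 to 0.18 for Tcf7, from -0.23 to 0.064 for Tcf7l1 and from -0.20 to 0.13 for Tcf7l2, and on day 2 from -0.27 to 0.27 for Lef1 and from -0.088 to 0.056 for Gsk3b. On day 2.5 they ranged from -0.13 to 0.12 for Tcf7, -0.17 to 0.096 for Lef1, -0.090 to 0.055 for Tcf7l1, -0.46 to 0.25 for Tcf7l2, -0.14 to 0.12 for Ctnnb1 and -0.075 to 0.022 for Apc. On day 3 they ranged from -0.20 to 0.017 for Tcf7l1, -0.52 to 0.041 for Tcf7l2, -0.11 to 0.083 for Axin1, -0.16 to 0.018 for Apc and -0.13 to 0.11 for Gsk3b. In wt from day 0 to day 2, Lef1 ranged from -0.18 to 0.18 and Apc from -0.0046 to 0.087, and in het Tcf7l2 ranged from -0.27 to 0.030, Axin1 from -0.15 to 0.055 and Apc from -0.082 to 0.048. Ctnnb1 ranged from -0.22 to 0.031 in het from day 2 to day 2.5. From day 2.5 to day 3, Tcf7l1 ranged from -0.076 to 0.071 in wt and -0.21 to 0.019 in het, and Ctnnb1 from -0.023 to 0.091 and -0.026 to 0.28. Interactions ranged from -0.048 to 0.24 for Tcf7 and -0.0087 to 0.36 for Lef1 in the first step and from -0.33 to 0.22 for Lef1 in the second. In the last they ranged from -0.20 to 0.050 for Tcf7l1, -0.45 to 0.34 for Tcf7l2, -0.047 to 0.24 for Ctnnb1, -0.18 to 0.090 for Apc and -0.29 to 0.053 for Gsk3b. Library totals alone turned the sign of differences between genotypes to 0.0070 for Tcf7 and 0.0012 for Apc on day 2.5 and 0.0091 for Axin1 on day 3, and of changes to 0.030 for Apc in het from day 0 to day 2, 0.0096 for Ctnnb1 in het from day 2 to day 2.5, 0.0055 for Tcf7l1 in wt from day 2.5 to day 3 and 0.049 for the second interaction of Lef1. That interaction was 0.016 without the filter, 0.017 with a mean of at least 50 counts and 0.0090 in the fit of all libraries. A mean of at least 50 counts also gave 0.0094 for Apc in het from day 0 to day 2, Axin1 between genotypes on day 3 was 0.00013 without the filter and 0.00029 in the fit of all libraries, and Tcf7l2 on day 0 was 0.010 with the replicate block. The cause was not tested. The smallest change of the 8 genes that passed was -0.22, for Apc in het from day 2 to day 2.5, and Tcf7l2 rests on few counts. P-values measure the spread between the libraries of these 3 lines of each genotype, 1 per line and day. Line, culture and library preparation cannot be told apart in that spread. Whether counting used the strand is not stated, which limits Tcf7l1, Lef1 and Ctnnb1, each with a gene on the other strand.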
